A study of Rattus norvegicus with 25 samples.

Results

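The hippocampus of rats killed 24 h after the forced swim test (FST, hereafter the 24-h group) was compared with that of control rats that were not made to swim. All 16 libraries labelled FST 24 h or FST control were used, of 25 in the series, and they came from 12 of 19 rats. The 24-h group held 6 rats with 1 library each, and the control group held 6 rats with 10 libraries, since rats 21 and 27 were sequenced in 3 runs whose counts were summed. All were male Sprague Dawley rats, each rat was treated as 1 replicate, and the 24-h rats had also had a pretest swim on the day before the test. A further group of 7 rats, killed 20 min after the test (20-m group), shared the statistical fit. It bears on the fitted 24-h against control differences through the estimates of spread and batch, and is otherwise used below only where stated.

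The FST places a rat in a cylinder of water from which it cannot climb out, and here it served as an acute stressor. In the hippocampus, a region dense in corticosteroid receptors, swimming and other stressors are known to switch on immediate early genes within minutes. These genes need no new protein to start their transcription, which is driven by factors such as CREB and SRF that are already in the cell. Many of their products are transcription factors or brakes on the same signals, and their mRNAs are short-lived. The comparison asks which transcripts still differed from control a day after the swim.

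Libraries differed by batch, as the labels name it, more than by group, and 1 rat of the 24-h group stood apart. Summed counts per rat were 6217562 to 9032877 in the control group and 6529689 to 8202448 in the 24-h group. In batch 1 there were 3 rats from either group, batch 2 had 3 24-h rats beside 1 control rat, and batches 3 to 5 held the other 2 control rats and no 24-h rat. Batches 3 to 5 also held 1 rat of the 20-m group. With batch as a term, the 2 control rats there bear on the size of the fitted 24-h difference only through the 20-m group. Without that group, the difference rests on the control rats of batches 1 and 2. The first principal component of the 12 rats, with 34.3% of the variance, separated the 6 rats of batch 1 from the rest, and the batch term of the fit was called for 2344 of 13908 genes (16.9%) by edgeR at an adjusted p under 0.05. The second component (12.9%) was led by rat 13 of the 24-h group, whose score of 44.7 compared with -12.9 to 14.6 in the other rats. Rat 13 had the lowest mean Spearman's rho with the other rats, 0.967 against 0.976 to 0.982, and was highest of the 12 rats by more than 1 in 140 genes on the scale of log2 CPM, where CPM is the count of a gene scaled to a common library total with TMM normalization. Control rat 21 was highest by that margin in 65 genes, and no other rat in more than 11. Results are therefore given with and without rat 13. The deposited tables carry gene identifiers without names, so markers of hippocampal cell types were not checked here.

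**Figure D1:**
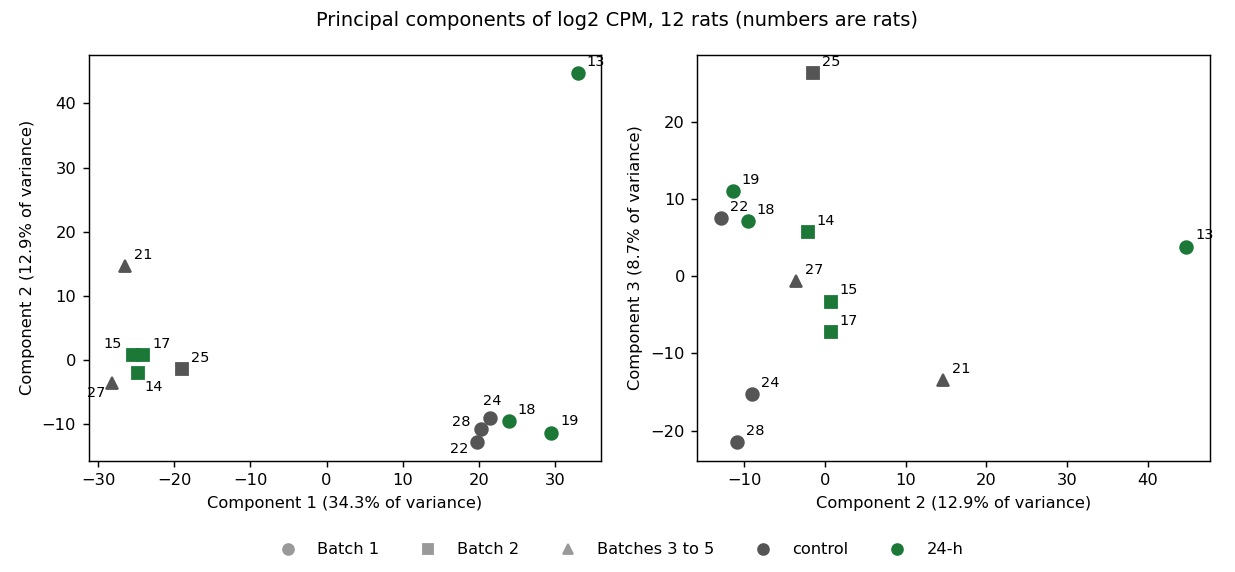
Scores of the 12 rats on principal components 1 and 2 (left) and 2 and 3 (right) of log2 CPM, with the share of variance on each axis. Colour marks the group, shape marks the batch and the number is the rat. Batch 1 lies on the right of component 1, rat 13 lies alone on component 2 at 44.7, and no drawn component separates the 24-h rats from the control rats.

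No DEG was found between the 24-h group and control. Of 13908 genes tested by edgeR's quasi-likelihood test, 0 (0%) passed both an adjusted p under 0.05 (Benjamini-Hochberg) and a 1.5-fold change, the rule for a DEG, and the smallest adjusted p was 0.9999. At an unadjusted p under 0.05 there were 441 genes (3.17%), 256 higher and 185 lower at 24 h, and DESeq2, which also called 0, had 351. Without rat 13 there were 137 higher and 122 lower genes, and again 0 were called. Fitted differences over 2-fold were found in 60 genes in the higher and 17 in the lower direction, and without rat 13 in 39 and 29. In 6 genes (0.0431%) every 24-h rat lay above every control rat, and in 11 genes (0.0791%) every 24-h rat lay below. In whole hippocampus, fewer cells of a type and less RNA per cell cannot be told apart.

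Similarity between libraries was higher within a batch than across batches. Across genes, pairs of rats of the same group in batch 1, rat 13 left out, had a median Spearman's rho of 0.9898, and pairs of a 24-h with a control rat in that batch had 0.9880. In batch 2 the medians were 0.9901 within the 24-h group and 0.9881 between its rats and the control rat. Rats of the 24-h group in different batches, again without rat 13, were less alike, with a median of 0.9737. The median SD of log2 CPM per gene was 0.125 over the 3 control rats of batch 1. It was 0.116 over the 3 24-h rats of batch 2 and 0.167 over the 3 24-h rats of batch 1. Without rat 13, the 2 24-h rats left in batch 1 had 0.0978. A median SD over 2 rats runs lower than one over 3, so 0.0978 cannot be set directly against the other values.

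The precision of the fitted difference depended on the level of the gene. The 95% confidence interval of the log2 fold change had a median half-width of 0.27, which is 1.21-fold. These intervals are for 1 gene at a time and are not corrected for the number of genes tested. A difference larger than the half-width could therefore still be left uncalled. The whole interval lay within 2-fold of no change for 93.4% of the genes tested, and within 1.5-fold for 77.3%. In the lowest of 4 equal classes of genes by level, with a median of 3.48 CPM, 78.7% of intervals lay within 2-fold and 31.8% within 1.5-fold. In the highest class, with a median of 103 CPM, these shares were 99.5% and 97.3%.

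**Figure D2:**
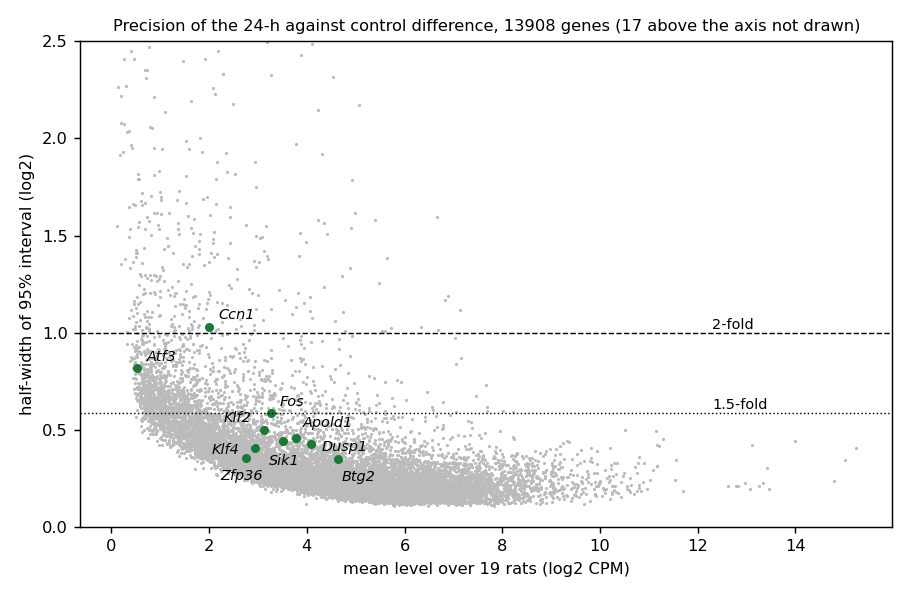
Half-width of the 95% interval of the 24-h against control log2 fold change (vertical axis) against the mean level over 19 rats in log2 CPM (horizontal axis), with 1 grey point per gene and the 10 early response genes in green. Dashed and dotted lines mark 2-fold and 1.5-fold. Intervals narrow with level, and Ccn1 and Atf3 are the least precise of the 10.

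Names could be given to few genes. The study's table of genes changed at 20 min pairs identifiers with the early response genes Sik1, Dusp1, Zfp36, Btg2, Fos, Atf3, Klf2, Klf4, Apold1 and Ccn1 and with AABR07033249.1, which has no gene name there. The study picked these genes on the 20-m rats and the same control rats, so their levels in the control group are not free of that choice. All were picked as higher at 20 min, which favours low control levels and so higher differences at 24 h. The 250 bases before the start of 4 of them are shown, since 2 hold the full cyclic AMP response element (CRE), at which CREB binds, and the other 2 belong to the genes with the smallest p at 24 h. They are from RefSeq on GRCr8, another build than the Rnor 6.0 of the counts. Capitals mark the CRE (TGACGTCA), its half-site (TGACG or CGTCA) and, in Zfp36, a match to the core pattern of the serum response element, CC(A/T)6GG. This match lies close to the start, and whether SRF binds there was not tested.
Dusp1, chr10:17184603-17184852, plus strand: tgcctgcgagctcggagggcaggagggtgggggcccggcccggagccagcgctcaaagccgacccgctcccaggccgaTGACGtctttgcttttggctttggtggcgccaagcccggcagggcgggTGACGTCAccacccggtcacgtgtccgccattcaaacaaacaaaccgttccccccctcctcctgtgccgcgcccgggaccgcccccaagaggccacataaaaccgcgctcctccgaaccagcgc
Btg2, chr13:48087691-48087940, minus strand: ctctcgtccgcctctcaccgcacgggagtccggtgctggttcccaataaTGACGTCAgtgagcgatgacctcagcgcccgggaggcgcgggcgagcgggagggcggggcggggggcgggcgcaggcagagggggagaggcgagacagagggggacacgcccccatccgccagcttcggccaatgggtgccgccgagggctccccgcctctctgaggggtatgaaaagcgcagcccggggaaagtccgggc
Sik1, chr20:9958647-9958896, minus strand: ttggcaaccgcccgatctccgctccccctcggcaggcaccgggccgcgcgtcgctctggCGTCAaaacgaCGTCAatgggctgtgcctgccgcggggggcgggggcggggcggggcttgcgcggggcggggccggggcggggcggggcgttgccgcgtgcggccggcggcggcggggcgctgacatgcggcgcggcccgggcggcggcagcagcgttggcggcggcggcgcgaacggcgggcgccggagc
Zfp36, chr1:92799109-92799358, minus strand: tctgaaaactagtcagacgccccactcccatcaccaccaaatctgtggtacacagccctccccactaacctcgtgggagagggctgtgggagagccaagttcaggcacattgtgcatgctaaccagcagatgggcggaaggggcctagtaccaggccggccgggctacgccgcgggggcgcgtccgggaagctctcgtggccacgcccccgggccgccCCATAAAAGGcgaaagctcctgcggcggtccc

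Of the 10 named early response genes, 7 had an entry in the RefSeq promoter table. Fos, Atf3 and Klf2 had none, so their promoters were not searched. Both strands were searched. The full CRE was found in Dusp1 and Btg2 and in 1.59% of 33469 promoters of that length. The half-site, which the full element also contains, was found in 5 of the 7 (Sik1, Dusp1, Btg2, Apold1 and Ccn1) and in 18.2% of all. A match to the serum response core pattern was found in Zfp36 and in 1.497% of all. AGAACA or TGTTCT, the half-site of the glucocorticoid response element, was found in none of the 7 and in 17.5% of all.

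No transcription factor of the early response passed the test at 24 h. Of the list of AP-1 and related factors, 4 of 12 genes had an identifier (Fos, Atf3, Klf2 and Klf4), and none passed an unadjusted p under 0.05 in either direction, against 3.17% of all genes. Their median log2 fold change was 0.10, and -0.06 without rat 13, where the median of all genes was -0.0014. Fos, a subunit of AP-1 and the usual marker of neuronal activation, had 3.70, 6.43 and 8.26 CPM (lowest, median and highest) in control rats and 3.12, 7.23 and 9.33 CPM in the 24-h group. The 2 ranges overlapped almost entirely. The log2 fold change of Fos was 0.09 (95% interval -0.49 to 0.68).

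Atf3, a stress-induced factor of the ATF/CREB family, was the lowest of the factors, with 3 to 6 counts per control rat and 2 to 9 counts per 24-h rat. Its CPM was 0.442, 0.622 and 0.819 in control rats and 0.284, 0.741 and 1.17 at 24 h, and the log2 fold change was 0.11 (-0.71 to 0.92). The highest value was that of rat 13, without which the difference was -0.18 (-1.04 to 0.68). Klf2 and Klf4 are zinc finger factors of the Kruppel-like family, known among other tissues in vascular endothelium. Klf2 had 4.31, 6.18 and 7.15 CPM in control rats and 5.09, 6.32 and 8.77 CPM at 24 h, a log2 fold change of 0.21 (-0.29 to 0.71). Klf4 had 4.69, 5.52 and 6.98 CPM in control rats and 4.55, 5.48 and 10.4 CPM at 24 h. Its medians were nearly equal, and the highest value was again rat 13. The log2 fold change of Klf4 was 0.10 (-0.31 to 0.50), and -0.14 (-0.47 to 0.18) without rat 13.

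**Figure D3:**
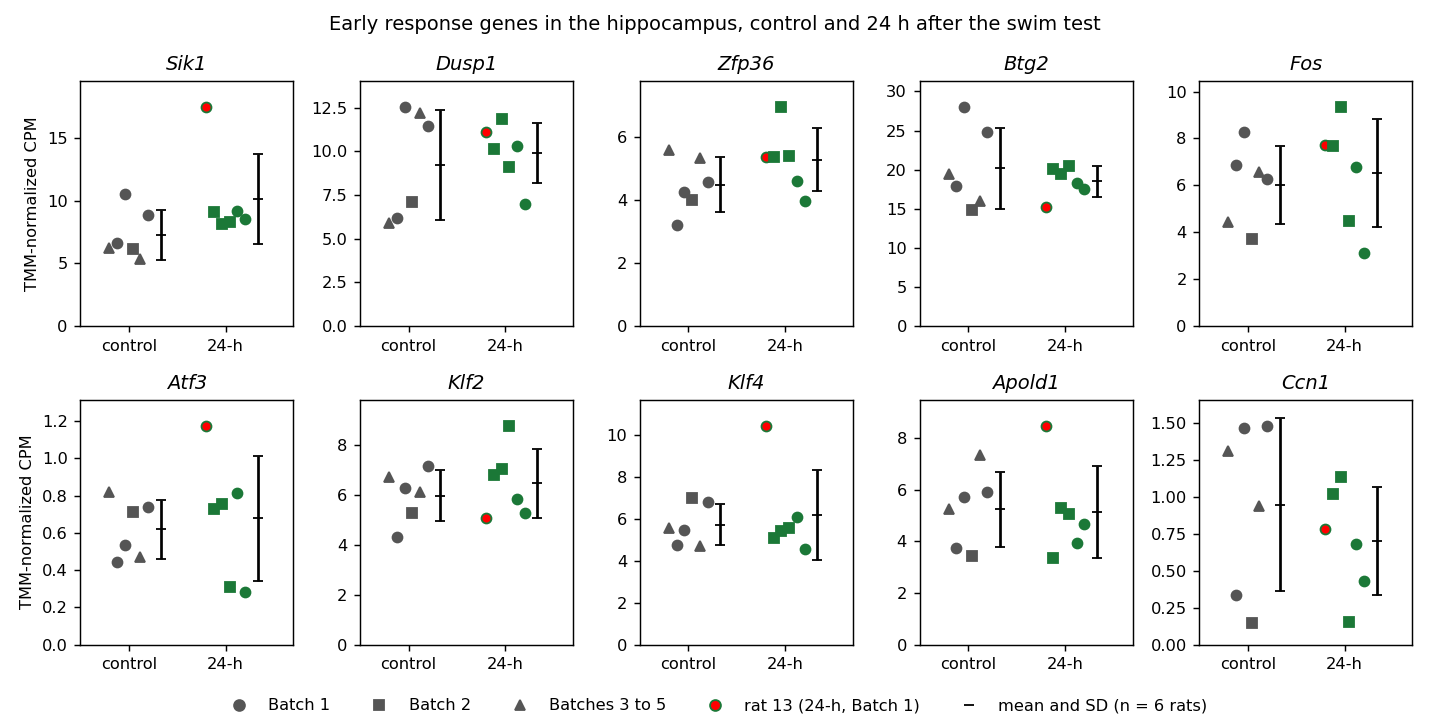
TMM-normalized CPM of 10 early response genes in each of the 6 control (grey) and 6 24-h rats (green), with shape for batch, rat 13 filled in red, and the mean and SD beside the points; each vertical axis starts at 0. The groups overlap in all 10 genes, and rat 13 is the highest of the 12 rats for Sik1, Atf3, Apold1 and Klf4.

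Among the effectors and feedback genes of the early response, 6 of 15 listed genes had an identifier, and their median log2 fold change was 0.18, and 0.07 without rat 13. Sik1 and Zfp36 were at an unadjusted p under 0.05, both with the higher level at 24 h, and none of the 6 was lower at that threshold, against 3.17% of all genes in either direction. Sik1 encodes a kinase that holds back CREB by phosphorylating its coactivators. It had 5.32, 6.43 and 10.5 CPM in control rats and 8.19, 8.83 and 17.5 CPM at 24 h, with means of 7.28 ± 1.99 and 10.1 ± 3.62 (SD, n = 6 each). Rat 13, at 17.5 CPM, was the only 24-h rat above all control rats. The fitted log2 fold change was 0.55 (0.11 to 0.99), which is 1.47-fold, with an edgeR adjusted p of 0.9999. Without rat 13 it was 0.32 (-0.07 to 0.72). The exact permutation test on mean log2 CPM gave a two-sided p = 0.0498 over all arrangements of the 12 rats and p = 0.125 over the 80 arrangements within batches. The arrangements of all 12 rats also exchange rats between batches, which held unequal shares of the 2 groups. A p over all arrangements therefore mixes batch with group.

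Zfp36 (tristetraprolin), which binds AU-rich elements and speeds the decay of mRNAs, had 3.204, 4.41 and 5.57 CPM in control rats and 3.98, 5.36 and 6.93 CPM at 24 h. The ranges overlapped, with 1 24-h rat above all control rats. The log2 fold change was 0.38 (0.02 to 0.73) with an edgeR adjusted p of 0.9999, and 0.38 (-0.01 to 0.76) without rat 13. The exact permutation test gave p = 0.182 over all arrangements and p = 0.0875 within batches. Neither gene passed the correction for all genes tested.

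Dusp1, the phosphatase that switches off MAP kinases, had 5.90, 9.29 and 12.5 CPM in control rats and 6.96, 10.2 and 11.8 CPM at 24 h. All 24-h rats lay inside the control range, and the log2 fold change was 0.18 (-0.25 to 0.61). Btg2, an antiproliferative protein that recruits the deadenylase complex to mRNA, had 14.8, 18.7 and 27.98 CPM in control rats and 15.3, 18.9 and 20.5 CPM at 24 h. The 24-h rats again lay inside the control range. Its log2 fold change was -0.13 (-0.48 to 0.21). Intervals of Btg2 and Klf4 lay within 1.5-fold of no change, with and without rat 13.

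Apold1, an early response gene of endothelial cells, had 3.42, 5.49 and 7.35 CPM in control rats and 3.34, 4.88 and 8.48 CPM at 24 h, with rat 13 the highest. The log2 fold change of Apold1 was 0.19 (-0.27 to 0.65), and -0.01 (-0.44 to 0.42) without that rat. With all rats and no batch term it was -0.0145, so its sign depends on that term too. Ccn1 is a secreted matricellular protein and was barely detected, with 1 to 12 counts per control rat and 1 to 9 per 24-h rat. Its log2 fold change of -0.11 had an interval from -1.14 to 0.92, which reaches past a 2-fold lower level but not a 2-fold higher one.

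**Figure D4:**
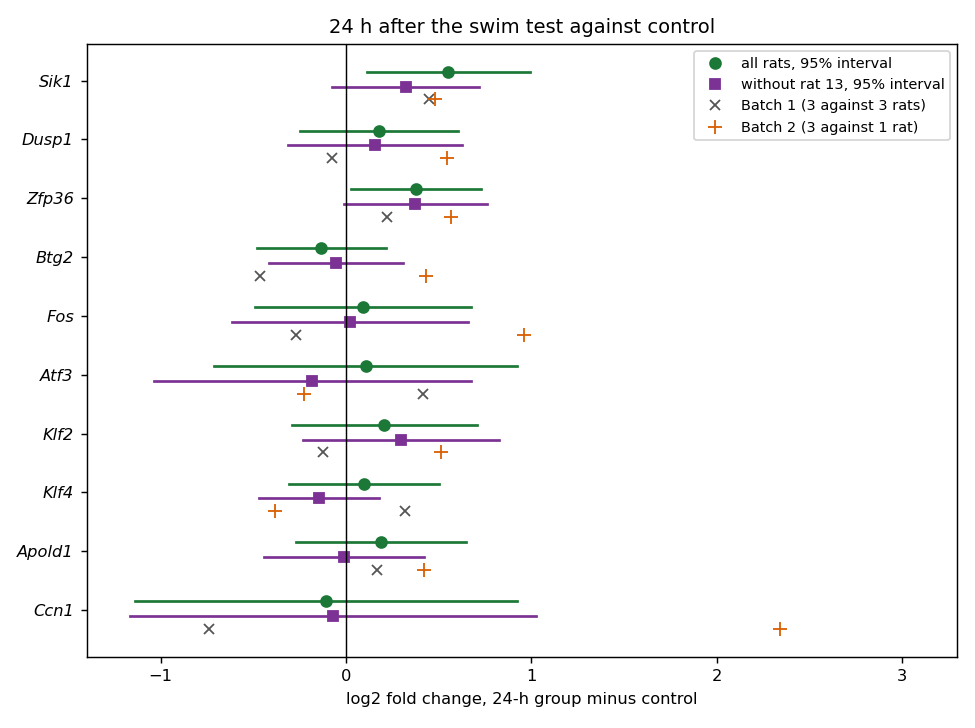
Log2 fold change of the 24-h group minus control (horizontal axis) for 10 early response genes. Circles with lines are the fit on all rats with its 95% interval, squares with lines the fit without rat 13, and crosses and pluses the differences within batch 1 (3 against 3 rats) and batch 2 (3 against 1). The intervals of Sik1 and Zfp36 lie above 0 with all rats and reach below 0 without rat 13, and the batches lie on opposite sides of 0 for 7 of the 10.

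Per length, in the deposited TPM values, which allow for transcript length, the order of the named genes in the 24-h group was led by AABR07033249.1 (11.9 ± 6.15, SD, n = 6), which led in batch 1 only, Btg2 (9.94 ± 1.26), Klf2 (8.69 ± 2.01) and Dusp1 (7.08 ± 1.21). Fos (5.70 ± 1.96), Zfp36 (4.03 ± 0.705), Klf4 (3.59 ± 1.18), Sik1 (2.76 ± 0.924) and Apold1 (2.42 ± 0.785) followed. Ccn1 (0.487 ± 0.252) and Atf3 (0.458 ± 0.227) were lowest. Neighbours in this order differed by less than the larger of their SDs, except Apold1 and Ccn1, which differed by more. AABR07033249.1 had 14.65 to 19.9 TPM in the 24-h rats of batch 1 and 4.01 to 8.40 TPM in those of batch 2, where Btg2 had 10.03 to 11.3 TPM.

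Further entries of the same table showed other kinds of spread. AABR07033249.1 ranged from 5.16 to 24.0 CPM in control rats and from 4.35 to 22.9 CPM at 24 h, with a log2 fold change of 0.10 (-0.39 to 0.59). This spread went with batch, since the 6 rats of batch 1 had 13.7 to 24.0 CPM and the other 6 had 4.35 to 9.71 CPM. ENSRNOG00000053462, a transcript of 134 bases whose symbol and description in that table name different genes, followed the batch more strongly. In batch 1 it had at most 0.552 CPM in any rat, and in the other batches at least 5.16 CPM. That table lists this identifier as higher at 20 min than in control. Here its log2 fold change was -0.12 for 24 h minus control. For 24 h minus 20 min it was 1.07 (0.54 to 1.60, edgeR adjusted p = 0.124), so the fitted level was lower at 20 min. The listed direction was thus not seen here, and whether the listed values belong to this identifier was not tested. ENSRNOG00000032585, which stands beside 2 symbols in that table, was at 0 counts in 3 24-h rats and 1 control rat and reached 43 counts in others. The posterior SD that RSEM gave for its count was up to 28.7 counts, and it was 0 for the named genes. A value above 0 marks reads that could be shared with other genes, and the log2 fold change of -1.04 (-3.09 to 1.01) is uncertain.

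Genes with the smallest p could be given by identifier only. Those printed are 2 in each direction whose difference had the same sign in batches 1 and 2, and they were chosen after their values were seen. ENSRNOG00000010047 had 3.75, 5.87 and 9.37 CPM in control rats and 3.39, 3.92 and 5.40 CPM at 24 h. Its ranges overlapped, with 2 24-h rats below all control rats, and the log2 fold change was -0.70 (-1.05 to -0.34). ENSRNOG00000054957 had 1.55, 1.68 and 2.71 CPM in control rats and 0.710, 1.11 and 1.596 CPM at 24 h, and 5 24-h rats lay below all control rats. Its log2 fold change was -0.99 (-1.53 to -0.45), which rests on low counts, with 10 to 19 per control rat and 5 to 11 per 24-h rat.

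ENSRNOG00000009726 had 11.3, 12.6 and 16.6 CPM in control rats and 14.5, 16.7 and 20.1 CPM at 24 h, with 3 24-h rats above all control rats and a log2 fold change of 0.41 (0.18 to 0.65). ENSRNOG00000056193 had 2.14, 2.41 and 2.96 CPM in control rats and 2.65, 3.99 and 4.70 CPM at 24 h. In this gene 5 of 6 24-h rats lay above all control rats, and the log2 fold change was 0.63 (0.27 to 0.99). All 4 kept their direction without rat 13, with values of -0.64, -0.91, 0.45 and 0.60 in the order given, and all had an edgeR adjusted p of 0.9999. The choice of genes by small p and by sign in both batches largely fixes this, since rat 13 is in batch 1 only.

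The 24-h effect was also taken within each batch, in a fit on batches 1 and 2 with a group by batch term, added after the data were seen. None of 14069 genes (0%) was called in batch 1, in batch 2 or for the difference between them, and at an unadjusted p under 0.05 edgeR had 855, 408 and 748. Of the 855 genes at that threshold in batch 1, 33.6% had the same sign in batch 2, and 43.5% of all genes did. Without rat 13, 484 genes were at that threshold in batch 1, of which 24.8% had the same sign in batch 2, against 42.0% of all genes. Across genes, the log2 fold changes of the 2 batches had a Pearson's r of 0.0022, and -0.05 without rat 13, and genes are not independent replicates. Batch 2 had a single control rat, rat 25, so all its differences share that rat's deviations, and its p-values assume that this rat varies like the other rats of the fit. Among the named genes, Btg2 differed most between batches by p, with -0.47 in batch 1 and 0.43 in batch 2 (edgeR adjusted p of the difference 0.883). The sign was the same in both batches for Sik1 (0.45 and 0.48), Zfp36 (0.22 and 0.57) and Apold1 (0.16 and 0.42). With batch 1 fitted alone and without rat 13, Sik1 had 0.0483, Zfp36 had 0.11 and Apold1 had -0.24.

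**Figure D5:**
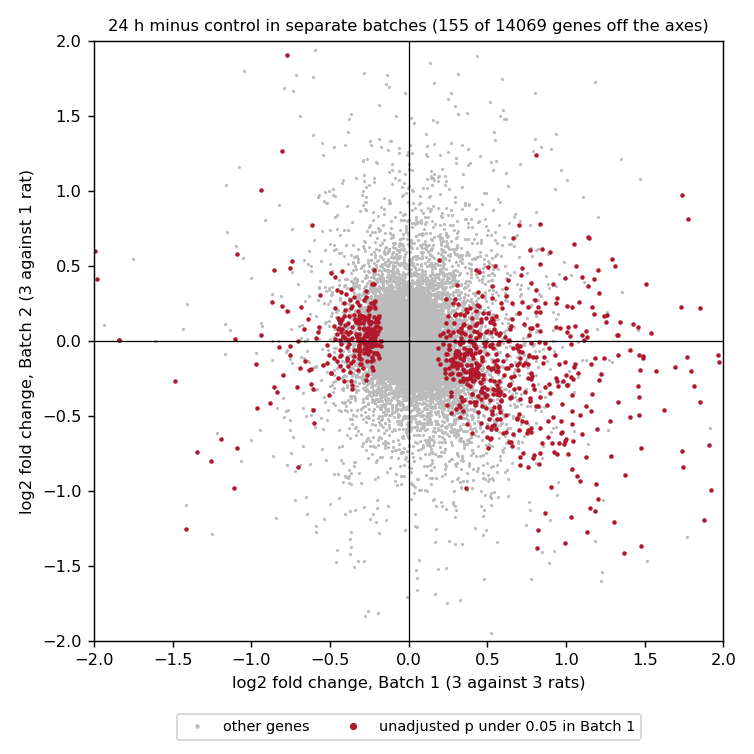
Log2 fold change of the 24-h group minus control in batch 1 (3 against 3 rats, horizontal axis) and in batch 2 (3 against 1 rat, vertical axis), with 1 point per gene and axes limited to 2 in each direction. Genes at an unadjusted p under 0.05 in batch 1 are red, and 33.6% of these 855 genes have the same sign in batch 2.

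Set against the 20-m group, 4 early response genes were lower at 24 h. By edgeR 5 of 13908 genes (0.036%) were called for 24 h against 20 min, and the fifth, named after its value was seen, was ENSRNOG00000005634 with -0.81. Apold1 was lower by a log2 fold change of -2.34 (adjusted p = 1.08e-06), Ccn1 by -3.49 (adjusted p = 1.21e-04), Dusp1 by -1.51 (adjusted p = 0.000283) and Btg2 by -0.89 (adjusted p = 0.024). These 4 genes were picked by the study for their levels in the same 20-m rats, so the differences are not independent evidence of their direction. Without rats 12 (20-m group) and 13, a fit added after the data were seen, the values were -2.46, -3.57, -1.56 and -0.88 in the same order, all past the threshold, and Klf4 (-0.95, edgeR adjusted p = 0.00943) and Zfp36 (-0.84, edgeR adjusted p = 0.0418) passed it as well. Without rat 13 alone Btg2 was at -0.82 and lost its call (edgeR adjusted p = 0.0774), as it did without rat 18 (0.0996) or rat 19 (0.0597), while Klf4 (-0.92, edgeR adjusted p = 0.00694) and Atf3 (-1.84, edgeR adjusted p = 0.0413) gained one without rat 13. In batch 1 alone, with 3 rats a group, none of the 4 was called (edgeR adjusted p = 0.0696 to 0.359), with differences of -2.33, -4.01, -1.67 and -1.02 in the same order. Sik1 was the named gene with the smallest such difference, at -0.59 (adjusted p = 0.213), and Fos had -1.16 (adjusted p = 0.0801). The fitted difference was below 0 for all 10 early response genes, a sign that the choice of genes on the 20-m rats largely fixes.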

How the data were processed

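Poly(A) RNA of the rat hippocampus was sequenced. After trimming with AdapterRemoval V2 and alignment with STAR (whose version, like that of RSEM, is not given in the sources used here), expected counts from RSEM, without normalization, and TPM values were deposited by the authors for 32623 genes of Rnor 6.0 (annotation release 93). The deposited posterior SD of counts is a score of how uncertainly RSEM placed shared reads. Deposited values are not corrected for batch. Supplementary tables number some rats differently, and the labels were followed.

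Expected counts were rounded and runs of a rat summed. Genes were kept by filterByExpr (minimum count 10, minimum total 15). The test was edgeR's quasi-likelihood F test with TMM, group and batch (batches 3 to 5 as 1 level) over 19 rats, which leaves 14 residual degrees of freedom. Standard errors are the log2 fold change over the root of F. Log2 CPM has a prior count of 2. Depth was 6217562 to 9032877 counts per rat, and intervals are at 95%. The procedure was tested on simulated data. The alternatives covered scaling, DESeq2, limma voom, ComBat, other batch terms, filters and subsets, single runs, log2(TPM + 1) with limma, and each rat left out.

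Members, lists and tests were chosen with earlier results of these data known. Names came from the study's supplementary table, of which 11 symbols were used, since its other pairings with identifiers are ambiguous, and the rule named its genes, the list members and, where none was called, the genes with the smallest p and the same sign in both batches. Lists with under 3 identified genes were not analysed here. Software was R 4.3.3, edgeR 4.0.16, limma 3.58.1, DESeq2 1.42.0, sva 3.50.0, Python 3.11.15, numpy 2.4.6, pandas 2.3.3 and scipy 1.17.1.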

Additional observations from a re-analysis of the deposited data

Results flagged for a closer look

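Of 38 sets of 6 values tested with Dixon's ratio (critical value 0.625), 4 held a rat far from the others, and chance gives about 1 in 20. In the 24-h group rat 13 was far above the others for Sik1 (ratio 0.845) and Klf4 (0.650), and far below for its mean Spearman's rho with the other rats (0.760). In the control group rat 21 was far below for ENSRNOG00000032585 (0.655), where it had 0 counts. The difference between the 24-h and the 20-m effect, tested in edgeR's fit, was past the threshold for Btg2 (log2 fold change -0.89), Dusp1 (-1.51), Apold1 (-2.34) and Ccn1 (-3.49), which the study had picked on the same 20-m rats.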

How the results depend on the processing

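Every alternative called 0 genes at 24 h against control, including DESeq2, limma voom, ComBat before limma, and the fits that left out 1 rat. The count at an unadjusted p under 0.05 moved more. It was 515 higher and 526 lower with ComBat before limma, 643 and 380 in batch 1 only, and 156 and 110 with TPM in place of counts. The higher genes were 480 with no filter, where 54.9% of intervals lay within 2-fold, and 507 in batch 1 without rat 13. The lower genes were 290 with the 24-h and control rats only and 101 with a minimum count of 50. Leaving out a rat gave 137 (without rat 13) to 403 (without rat 19) higher genes and 114 (without control rat 28) to 273 lower genes, with 122 lower without rat 13. The median of the effector list fell to -0.22 in batch 1 without rat 13. For the group by batch term, 1381 genes were at an unadjusted p under 0.05 with the 24-h and control rats only and 1335 without rats 12 and 13, and leaving out a rat gave 0 to 1 called genes, the 1 without control rat 24. Subsets without rats 12 and 13 and batch 1 without rat 13 were chosen after seeing the data.

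Small differences changed sign in 34 instances, all of genes whose 95% interval held 0, and none of these under another scaling. Atf3 was -0.0218 with limma voom, -0.0370 with TPM, -0.0304 in batch 1 without rat 13 and -0.11 without rats 12 and 13. Ccn1 was 0.000126 with ComBat and 0.0566 with TPM. Apold1 was -0.0145 without a batch term and -0.24 in batch 1 without rat 13. Dusp1 was -0.0696 in batch 1 and -0.20 there without rat 13, Klf2 was -0.12 and -0.0756, and Fos was -0.26 and -0.51, with -0.0395 without rats 12 and 13. Klf4 was -0.0764 in batch 1 without rat 13 and -0.15 without rats 12 and 13. ENSRNOG00000053462 was 0.10 with limma voom, 0.0675 without a batch term, 0.0720 with the compared rats only, 0.0123 with first runs only and 0.00195 without rats 12 and 13. Leaving out a rat gave -0.18 to 0.27 for Atf3, -0.37 to 0.12 for Ccn1, -0.11 to 0.28 for Fos, -0.0113 to 0.30 for Apold1, -0.14 to 0.23 for Klf4, -0.61 to 0.0214 for ENSRNOG00000053462 and -0.0271 to 0.32 for AABR07033249.1. The causes were not tested.

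For 24 h against 20 min, Btg2 lost its call in batch 1 only, in batches 1 and 2 only and without rat 13, 18 or 19, and Dusp1 (-1.67), Apold1 (-2.33) and Ccn1 (-4.01) lost theirs in batch 1 only, where Btg2 was at -1.02. Calls were gained by Fos with no filter, by Klf4 and Zfp36 without rats 12 and 13, by Klf4 and Atf3 without rat 13 and by Zfp36 without rat 15. No paired analysis was possible because the rats were divided into groups at random and each rat belonged to a single group. Depth limited the genes of low level, and Ccn1 and Atf3 had at most 12 counts in any of these rats.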
